A study of Mus musculus with 16 samples.

Results

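The genes described here are the 5 mouse members of the Ikaros zinc finger family, Ikzf1 (Ikaros), Ikzf2 (Helios), Ikzf3 (Aiolos), Ikzf4 (Eos) and Ikzf5 (Pegasus). Foxp3 and Cd4 stand beside them as a check for regulatory T cells in the sorted CD8 cells. These 7 of the 22180 genes tested were chosen by symbol, and each is measured by 1 probe set that carries no other gene symbol. Expression was measured in spleen CD8 T cells on 16 arrays, in 4 groups of 4 samples. Bone marrow chimeras, mice whose blood cells derive from transplanted marrow, carried either wild-type (WT) marrow or marrow with a knockout (KO) of Il4i1, which encodes a secreted amino acid oxidase. All mice were female, of a strain written as C56BL/6 in the labels, and all had received leukaemia cells from Eµ-TCL1 mice, a model of chronic lymphocytic leukaemia, 5 weeks before the sort. Effector cells were CD44 positive and CD127 negative. Memory cells were high for both. The groups are thus effector WT, effector KO, memory WT and memory KO, and no group comes from mice without leukaemia. The age of the mice and the genotype of the chimera hosts, whose remaining cells can persist beside the graft, are not stated in the labels. Nor do they tell whether the samples of a group are different mice, and all p-values given here therefore reflect only the variation among these samples, which may be technical.

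Ikaros family proteins bind DNA through zinc fingers near the amino terminus and form dimers with each other through a second set of zinc fingers at the carboxyl terminus. They recruit chromatin complexes such as NuRD, and they can act as repressors or activators. Ikaros and Aiolos act in lymphocyte development. In human cells they are degraded through the ubiquitin ligase subunit cereblon when immunomodulatory drugs are bound to it. Helios and Eos are known from Foxp3-positive regulatory T cells, and Helios is also found in activated and in chronically stimulated CD8 T cells.

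Values are log2 expression, so that a difference of 1 is a doubling of the signal, and a difference is named first group minus second. A gene was called where its adjusted p in limma, over all 22180 genes, was under 0.05. The targeted gene could not check the genotype labels, because the probe set for Il4i1 is shared with Nup62 and Il4i1b. Its means were 5.95 in effector WT, 5.90 in effector KO, 5.99 in memory WT and 5.67 in memory KO. Il7r, which encodes CD127, followed the gates, with means of 4.04 and 5.69 in effector WT and KO and of 10.71 and 11.08 in memory WT and KO. The effector KO and WT samples differed in Il7r itself, by 1.65 ± 0.25 (SE, n = 4 arrays a group, limma adjusted p = 0.0183). The mean of 9 CD8 T cell identity genes lay between 10.53 and 10.69 on all 16 arrays. Cd3d, Cd3e and Cd3g are among the 9 and mark T cells in general. Single genes of the list did shift between the subsets. Over both genotypes, a comparison chosen after the values were seen, 6 of 9 were called higher in effector cells and 1 lower. Of all genes, 5.05% were called higher there and 7.11% lower. Array effector KO 4 stood apart. Its correlations with the other arrays over all genes were 0.965 to 0.974, while the highest correlation of each other array was 0.989 to 0.994.

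Helios and Eos were the family members that varied most, and Ikaros hardly varied. Over the 16 arrays, Ikzf2 spanned 3.49 and Ikzf4 3.07 on the log2 scale, against 0.33 for Ikzf1, 0.60 for Ikzf3 and 1.07 for Ikzf5. The SD of Ikzf2 was above that of 99.5% of all genes tested and that of Ikzf4 above 98.1%, while only 1.34% of genes had a lower SD than Ikzf1. The share of a gene's variance that lay between the 4 groups was 86.3% for Ikzf3, 59.1% for Ikzf4, 57.3% for Ikzf2, 22.4% for Ikzf5 and 21.7% for Ikzf1. Ikzf1, Ikzf2, Ikzf3, Ikzf5 and Foxp3 lay above the array's own median over all probe sets on 16 of 16 arrays, Ikzf4 on 15 and Cd4 on 13.

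**Figure D1:**
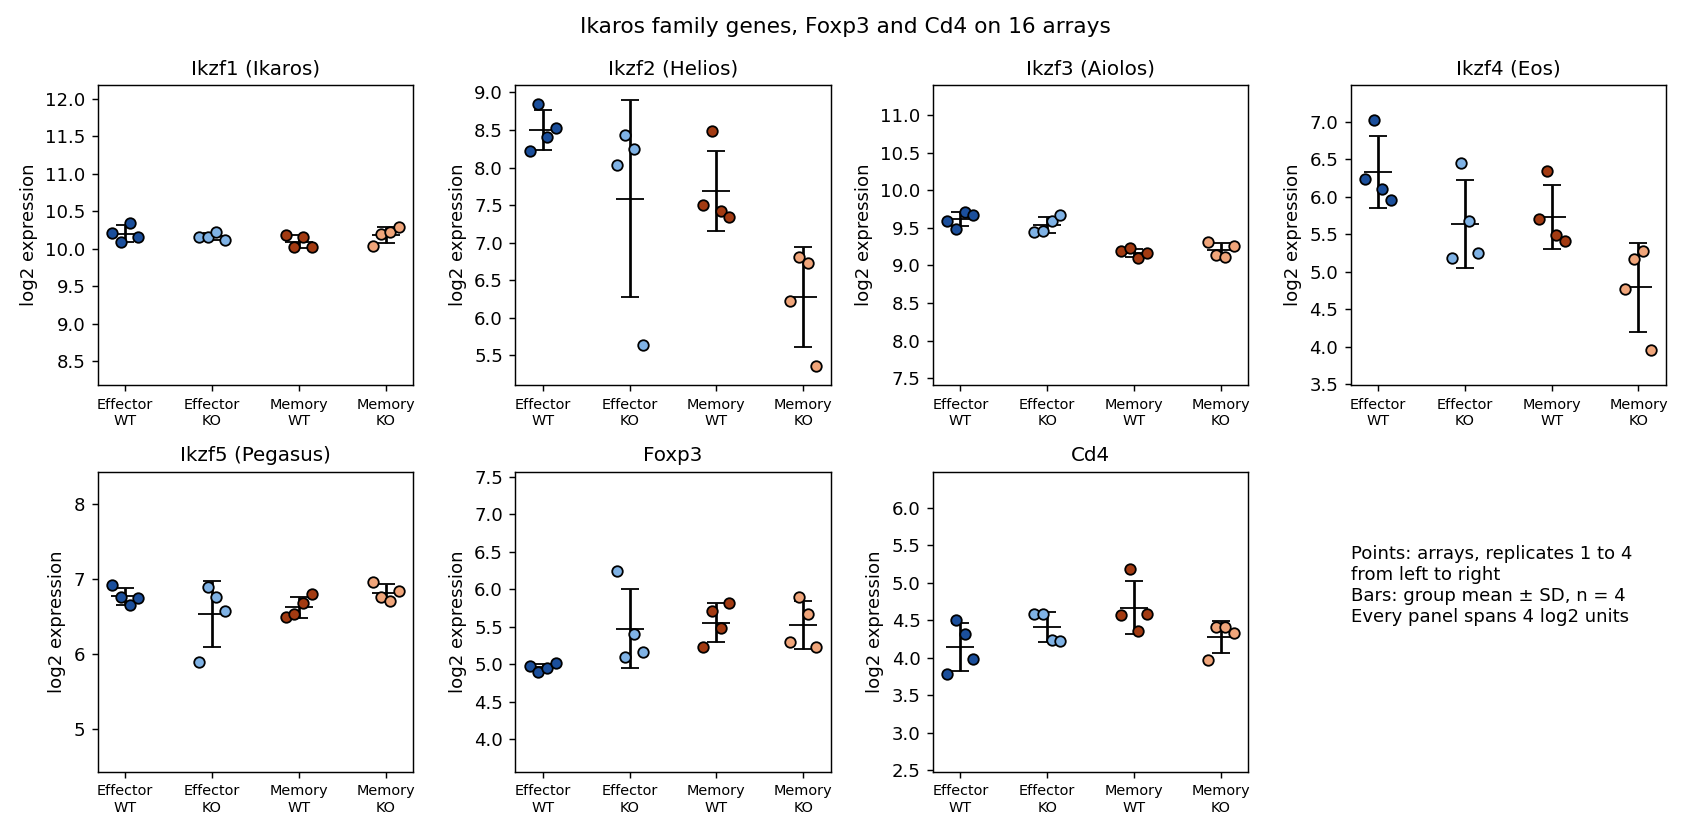
Log2 expression of the 7 genes on each of the 16 arrays, 1 panel per gene, with a point per array, the group mean as a line and the SD as the error bar. Ikzf2 and Ikzf4 are lowest in memory KO, Ikzf3 separates effector from memory cells, and Foxp3 is lowest in effector WT.

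Helios was lower in memory KO than in memory WT cells on every array, but the difference did not pass the test over all genes. Ikzf2 measured 7.50, 8.48, 7.42 and 7.35 on the memory WT arrays 1 to 4. It measured 6.22, 6.81, 6.73 and 5.36 on the memory KO arrays. The groups do not overlap, and the highest memory KO array lies below the lowest memory WT array. The mean difference, KO minus WT, was -1.41 ± 0.49 (SE, n = 4 arrays a group, 95% interval -2.44 to -0.38), a 2.66-fold lower signal in KO. Its limma adjusted p was 0.283. Of 12 measured B and leukaemia cell markers, 1 was called between memory KO and memory WT, and 11 lay below 0. Their mean was 4.85 to 5.27 on memory KO arrays and 5.21 to 6.15 on memory WT arrays, and Cd22, a B cell receptor inhibitor, fell by 1.04 ± 0.16 (SE, adjusted p = 0.0145). Ighm, the IgM heavy chain, had a mean of 11.33 in memory KO and 11.09 in memory WT. In bulk samples, fewer cells of a type and less RNA per cell cannot be told apart. The part of B cells in the Ikzf2 difference was not tested. In this comparison 25 of 22180 genes were called (0.113%), and 0 of the 7 genes described here. The KO group lay wholly below the WT group for 3.37% of all genes, among them Ikzf2 and Ikzf4. Without array effector KO 4, which enters this comparison only through the shared estimate of spread, the standard error of Ikzf2 was 0.29 and its adjusted p 0.0485. That was the 1 setting of 24 in which Ikzf2 passed between memory KO and memory WT. Without memory KO 4, an array of the comparison itself, the difference was -1.10 ± 0.50 (SE, limma adjusted p = 0.563).

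In effector cells 1 array set most of the Helios difference. Ikzf2 measured 8.22, 8.84, 8.41 and 8.52 on the effector WT arrays. It measured 8.04, 8.43, 8.24 and 5.63 on the effector KO arrays, of which array 4 is far below the others. The groups overlap, with a difference of -0.91 ± 0.49 (SE, n = 4 arrays a group, interval -1.94 to 0.12, limma adjusted p = 0.582). Without effector KO 4 the difference was -0.26 ± 0.31 (SE, adjusted p = 0.937). Of all genes, 12 were called between effector KO and WT (0.0541%), and 0 of the 7.

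Eos, which works as a corepressor with Foxp3 in regulatory T cells, had the same order of group means as Helios. Ikzf4 measured 5.70, 6.35, 5.48 and 5.41 on the memory WT arrays and 4.77, 5.16, 5.28 and 3.96 on the memory KO arrays. These groups do not overlap. Array memory KO 4 is the lowest of the 16 and the one array on which Ikzf4 lay below the array median. The difference was -0.94 ± 0.33 (SE, n = 4 arrays a group, interval -1.64 to -0.25, limma adjusted p = 0.283), a 1.92-fold lower signal in KO. Effector WT arrays measured 6.24, 7.02, 6.10 and 5.95 and effector KO arrays 5.18, 6.45, 5.67 and 5.25, so that the groups overlap through effector KO 2. The effector difference was -0.69 ± 0.33 (SE, n = 4 arrays a group, interval -1.38 to 0.00, limma adjusted p = 0.538).

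The genotype differences of effector and memory cells were not shown to differ from each other. The difference of differences, effector minus memory, was 0.50 ± 0.69 for Ikzf2 and 0.25 ± 0.46 for Ikzf4 (SE, limma adjusted p = 0.929 and 0.95). In this comparison limma called 0 of all genes (0%), with 1296 at an unadjusted p under 0.05 (5.84%). Averaged over both subsets, a comparison chosen after the values were seen, KO minus WT was -1.16 ± 0.34 for Ikzf2 and -0.82 ± 0.23 for Ikzf4 (SE, limma adjusted p = 0.143 and 0.132). That comparison called 43 of all genes (0.194%) and 0 of the 7. Without effector KO 2, the adjusted p of Ikzf4 in it was 0.0415. In 21 of 23 alternative settings Ikzf4 stayed short of the threshold, with a limma adjusted p of up to 0.243.

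Helios and Eos were also higher in effector than in memory cells, and again short of the threshold in the main fit, which does not pair arrays. In WT cells the difference was 0.81 ± 0.49 for Ikzf2 and 0.59 ± 0.33 for Ikzf4 (SE, n = 4 arrays a group, limma adjusted p = 0.514 and 0.457). In KO cells it was 1.31 ± 0.49 for Ikzf2 and 0.85 ± 0.33 for Ikzf4 (SE, n = 4 arrays a group, limma adjusted p = 0.123 and 0.138). Without effector KO 4 the KO difference of Ikzf2 was 1.96 and passed, with an adjusted p of 0.00112. In 21 of 24 alternative settings it stayed short of the threshold, with a limma adjusted p of up to 0.321. With the replicate number as a block, whose meaning the labels do not give, Ikzf2 and Ikzf4 passed in KO cells (limma adjusted p = 0.0382 and 0.0119). They also passed over both genotypes (limma adjusted p = 0.0129 and 0.00206), but not in WT cells. The group means of Ikzf2 ran from effector WT (8.50 ± 0.26) through memory WT (7.69 ± 0.53) and effector KO (7.59 ± 1.31) to memory KO (6.28 ± 0.67; SD, n = 4 each). For Ikzf4 they ran through the same groups from 6.33 ± 0.48 through 5.73 ± 0.43 and 5.64 ± 0.59 to 4.79 ± 0.60 (SD, n = 4 each). Averaged over both genotypes, also chosen after the values were seen, effector minus memory was 1.06 ± 0.34 for Ikzf2 and 0.72 ± 0.23 for Ikzf4 (SE, limma adjusted p = 0.0559 and 0.0523), where 12.2% of all genes and 1 of the 7, Ikzf3, were called. Arrays of neighbouring groups overlap at each step in both orders.

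Within groups, arrays high in Helios were mostly high in Eos. The deviations of Ikzf2 and Ikzf4 from their group means correlated over the 16 arrays with a Pearson r of 0.677 (exact permutation within groups, p = 0.00979) and a Spearman rho of 0.732 (p = 0.00249). Among the 21 pairs of the 7 genes computed, none passed after Benjamini-Hochberg adjustment, with 0.206 for this r and 0.0523 for this rho. Without effector KO 4 and memory KO 4, the arrays farthest from the median of Ikzf2 deviations, r was 0.691. The likeness was not particular to this pair. Among 11089 genes above the median level, Ikzf4 stood 1203rd by correlation of deviations with Ikzf2. For Ikzf4, Ikzf2 stood 357th. Replicate 2 held the highest Ikzf2 value in 4 of 4 groups and the highest Ikzf4 value in 3 of 4. The labels do not say what a replicate number shares between groups. The permutation shuffles each group on its own. Its p-values, here and below, do not allow for anything shared by replicate number and may then be too small.

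**Figure D2:**
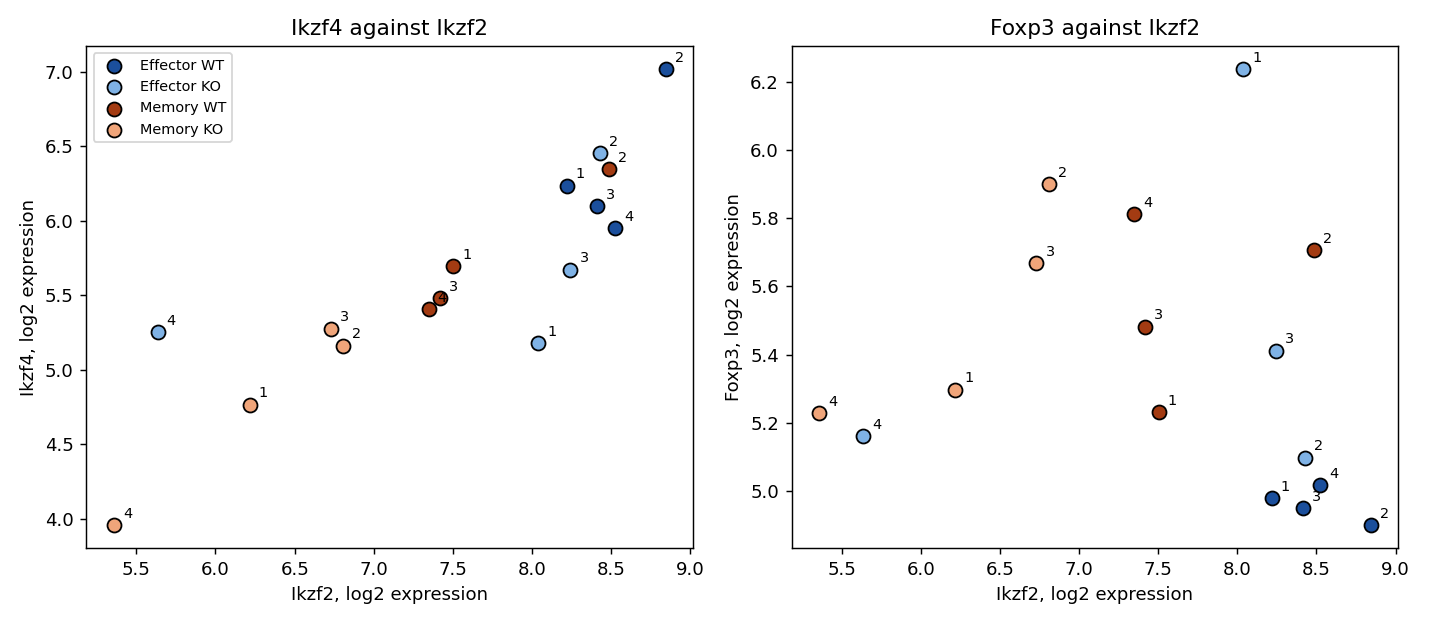
Log2 expression of Ikzf4 (left) and of Foxp3 (right) against that of Ikzf2, with a point per array, coloured by group and marked with the replicate number. Ikzf4 is high where Ikzf2 is high, and the 4 effector WT arrays are high in Ikzf2 and low in Foxp3.

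The named genes whose levels ran closest to Helios over the 16 arrays were Enpp6 (Pearson r = 0.983), Cblb (0.966), Glp1r (0.963), Lat2 (0.963) and Nr4a2 (0.961), out of 11089 genes above the median level. Cblb encodes a ubiquitin ligase that restrains T cell activation, and Nr4a2 an orphan nuclear receptor induced by antigen receptor signals. Ikzf4 stood 192nd in that order, with r = 0.864. The 5 genes share with Ikzf2 the arrays and the group differences. In memory cells KO minus WT was -1.71 for Nr4a2, -2.41 for Glp1r and -1.57 for Enpp6, given as a description because likeness to Ikzf2 chose these genes. Ranked by deviations from the group means, the leading genes were Enpp6 (0.962), Fanci (0.959), Lmbrd2 (0.949), Mlf2 (0.945) and Ints4 (0.943). For Eos, the leading genes by level were Slc22a15 (0.95), Septin11 (0.95), Tnfrsf1b (0.945), Vamp8 (0.941) and Eea1 (0.941). Tnfrsf1b encodes the second receptor for tumour necrosis factor. Correlations over arrays are given as a description.

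Aiolos separated effector from memory cells and was the single family member called in any of the comparisons. Ikzf3 measured 9.60, 9.49, 9.71 and 9.68 on the effector WT arrays and 9.19, 9.23, 9.11 and 9.16 on the memory WT arrays. The lowest effector array is above the highest memory array. The difference was 0.45 ± 0.09 (SE, n = 4 arrays a group, interval 0.26 to 0.63, limma adjusted p = 0.00746), a 1.36-fold higher signal in effector cells. Of all genes, 0.92% rose in effector WT cells and 2.3% fell, and 6.41% lay wholly higher there. The call held under all 24 alternative settings run, with adjusted p between 0.000928 and 0.0331. Not all could move the difference. Ikzf3 has 1 probe set, so the mean of a gene's probe sets left its values as they were. Leaving out a KO array changed only the shared estimate of spread.

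In KO cells Aiolos rose in effector cells as well. Ikzf3 measured 9.45, 9.46, 9.60 and 9.67 on the effector KO arrays and 9.32, 9.14, 9.11 and 9.27 on the memory KO arrays, again without overlap. The difference was 0.34 ± 0.09 (SE, n = 4 arrays a group, interval 0.16 to 0.52, limma adjusted p = 0.0234), a 1.26-fold higher signal. Of all genes, 3.14% rose and 4.3% fell in effector KO against memory KO cells, and 4.06% lay wholly higher. The adjusted p was 0.0617 without effector KO 3, 0.061 without memory KO 2, 0.0616 without memory KO 3 and 0.138 with only the 8 KO arrays in the fit. Between genotypes Ikzf3 differed by -0.07 ± 0.09 in effector and 0.04 ± 0.09 in memory cells (SE, n = 4 arrays a group, limma adjusted p = 0.813 and 0.926). The difference between these was -0.11 ± 0.12 (SE, limma adjusted p = 0.905).

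The gene whose level ran closest to Aiolos was Mta3 (r = 0.947 over 16 arrays), a subunit of the NuRD complex. Mta3 measured 9.25 to 9.41 in effector WT and 9.22 to 9.46 in effector KO, against 8.86 to 9.09 in memory WT and 8.84 to 9.11 in memory KO. No effector array overlaps a memory array of the same genotype. Mta3 rose in effector cells by 0.37 ± 0.09 in WT and by 0.33 ± 0.09 in KO (SE, n = 4 arrays a group, limma adjusted p = 0.029 and 0.0301). The next genes were Gse1 (0.932), Rinl (0.931), Lax1 (0.922) and Unkl (0.919). Lax1, an adaptor that limits antigen receptor signals, was 0.54 higher in effector WT than in memory WT and 0.58 higher in effector KO than in memory KO. These are descriptions, since likeness to Ikzf3 chose the gene. By deviations from the group means the leading genes were Shpk (0.892), Cox7c (0.871), Snai3 (0.864), Gpalpp1 (0.855) and Ttc13 (0.853), and Mta3 is not among them.

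**Figure D3:**
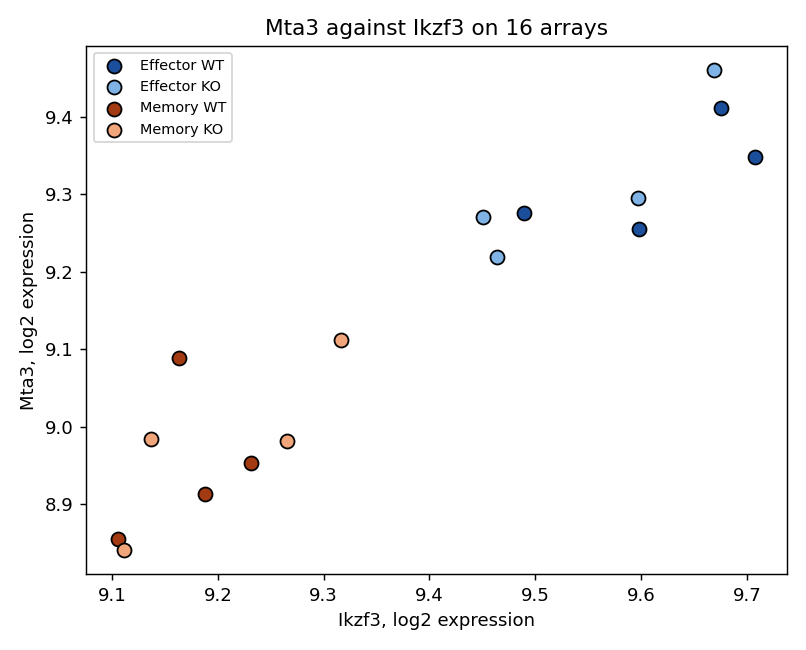
Log2 expression of Mta3 (y) against Ikzf3 (x), with a point for each of the 16 arrays, coloured by group. Effector and memory arrays form separate clouds of 8 each, and WT and KO arrays mix within each cloud.

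B cell markers were mostly lower in effector than in memory cells. Aiolos is also a B cell gene, and leukaemia cells of this model are B cells. Of the 12 B and leukaemia cell markers, 10 were called lower and 0 called higher in effector WT against memory WT. Of all genes, 2.3% were called lower and 0.92% higher there. The differences of the markers lay below 0 for 11 of 12, with a median of -1.36 against 0.01 over all genes. In KO cells 3 of the 12 were called lower, against 4.3% of all genes, 11 of 12 lay below 0, and the median was -0.56. The mean of the list was 4.16 to 4.40 on effector WT arrays and 5.21 to 6.15 on memory WT arrays. The part of B cells in the Ikzf3 values was not tested. Ighm had the smallest p of the list in WT, with a difference of -2.17 ± 0.22 (SE, n = 4 arrays a group, limma adjusted p = 3.68e-05). Of 10 myeloid markers 2 fell in effector WT, against 2.3% of all genes. In effector KO 1 of the 10 rose and 1 fell, against 3.14% and 4.3% of all genes. Of 6 NK cell markers 2 fell in effector WT and 3 in effector KO, against the same 2.3% and 4.3%. Of these 16 markers, 0 were called between genotypes in either subset, against 0.0541% of all genes in effector and 0.113% in memory cells.

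Ikaros, the founding member of the family, was nearly level over the groups. Ikzf1 measured 10.22, 10.09, 10.35 and 10.16 in effector WT, and 10.16, 10.16, 10.22 and 10.12 in effector KO. It measured 10.18, 10.03, 10.16 and 10.02 in memory WT, and 10.04, 10.20, 10.23 and 10.29 in memory KO. All 4 groups overlap. The genotype difference was -0.04 ± 0.09 in effector and 0.09 ± 0.09 in memory cells (SE, n = 4 arrays a group, limma adjusted p = 0.915 and 0.737). The genes with the closest levels were Dnm1 (r = 0.776), C2cd4c (0.763), Hint3 (0.75), Fam20a (0.714) and Cd6 (0.708), all looser than the leading genes of the other members.

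Pegasus, a divergent member of the family that is expressed in many tissues, was also not called. Ikzf5 measured 6.93, 6.76, 6.65 and 6.74 in effector WT and 5.90, 6.89, 6.76 and 6.58 in effector KO, where array 1 is low. It measured 6.49, 6.54, 6.67 and 6.80 in memory WT and 6.96, 6.76, 6.71 and 6.83 in memory KO. The genotype difference was -0.24 ± 0.16 in effector and 0.19 ± 0.16 in memory cells (SE, n = 4 arrays a group, limma adjusted p = 0.654 and 0.715). Without effector KO 1 the effector difference was -0.03. Ikzf5 lies on chromosome 7, as does Il4i1. Its closest genes by level were Ice2 (0.928), Hnrnpul2 (0.906), Mroh1 (0.867), Snord71 (0.849) and Fam193a (0.845).

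**Figure D4:**
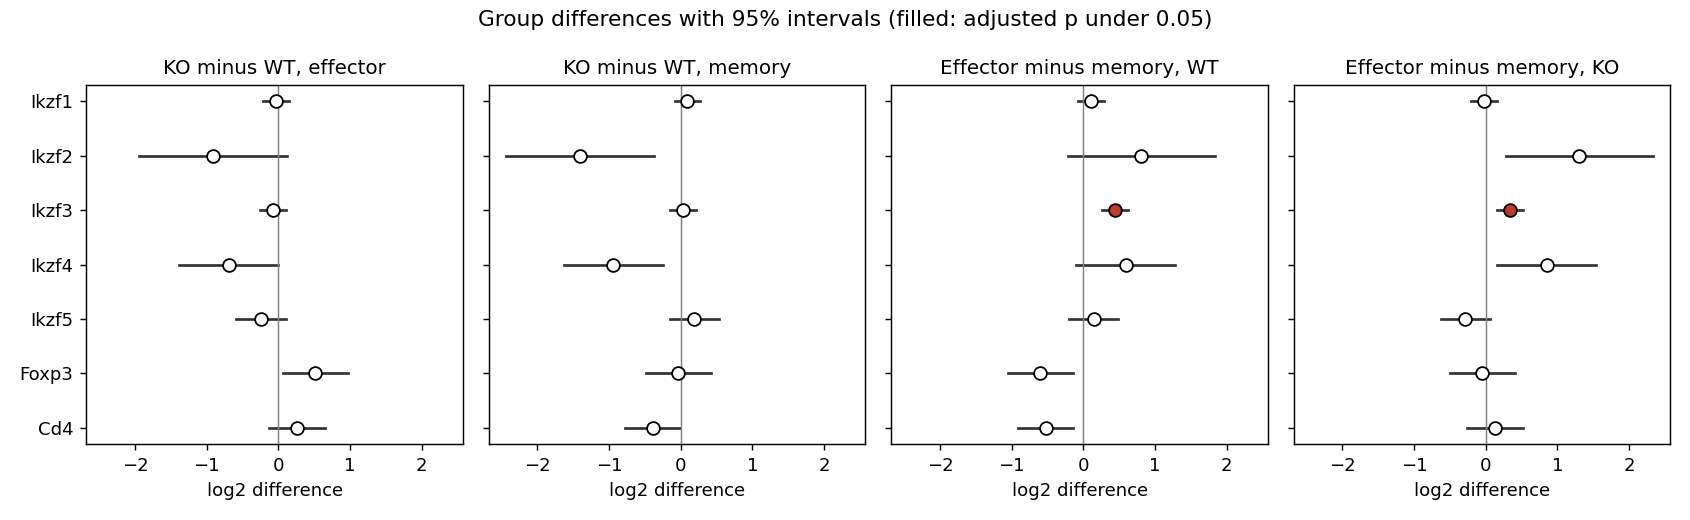
Log2 differences of the 7 genes in each comparison, with 95% intervals from limma. The interval of Ikzf3 lies above 0 for effector against memory in both genotypes, and those of Ikzf2 and Ikzf4 lie below 0 for memory KO against memory WT.

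Foxp3, the defining transcription factor of regulatory T cells, did not follow Helios and Eos over the groups. Foxp3 measured 4.98, 4.90, 4.95 and 5.02 in effector WT, the group with the highest mean of Ikzf2 and of Ikzf4. It measured 6.24, 5.10, 5.41 and 5.16 in effector KO, 5.23, 5.71, 5.48 and 5.81 in memory WT, and 5.30, 5.90, 5.67 and 5.23 in memory KO. Every effector WT array is below every array of the other 3 groups. Effector WT minus memory WT was -0.60 ± 0.21 (SE, n = 4 arrays a group, interval -1.05 to -0.15, limma adjusted p = 0.175). The WT effector group lay wholly below the memory group for 6.8% of all genes. Without effector KO 1, the highest Foxp3 array of all, the adjusted p was 0.0424, and with only the 8 WT arrays in the fit it was 0.018. In 21 of 24 alternative settings the difference stayed short of the threshold, with a limma adjusted p of up to 0.343.

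Between genotypes Foxp3 was not called. Effector KO minus effector WT was 0.52 ± 0.21 (SE, n = 4 arrays a group, interval 0.06 to 0.97, limma adjusted p = 0.509), and 2.71% of all genes lay wholly higher in this comparison. Without effector KO 1 the difference was 0.26. Memory KO minus memory WT was -0.03 ± 0.21 (SE, n = 4 arrays a group, interval -0.49 to 0.42, adjusted p = 0.974), in the cells in which Ikzf2 was 1.41 lower. The deviations of Ikzf2 and Foxp3 from their group means gave r = 0.39 and rho = 0.25 (exact permutation, p = 0.374 and 0.438, n = 16), and r = 0.138 without effector KO 4 and memory KO 4.

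Cd4, the coreceptor of helper and most regulatory T cells, was near the array medians, which lay between 4.12 and 4.22. Cd4 measured 3.78, 4.50, 4.32 and 3.98 in effector WT and 4.58, 4.58, 4.23 and 4.22 in effector KO. It measured 4.57, 5.17, 4.35 and 4.58 in memory WT and 3.96, 4.41, 4.40 and 4.33 in memory KO. All neighbouring groups overlap. Memory KO minus memory WT was -0.39 ± 0.18 and effector WT minus memory WT -0.52 ± 0.18 (SE, n = 4 arrays a group, limma adjusted p = 0.438 and 0.159). Replicate 2 held the highest Cd4 value in 4 of 4 groups, as it did for Ikzf2, and r between the deviations of Cd4 and Ikzf2 was 0.49 (exact permutation, p = 0.0218, adjusted over 21 pairs 0.229, n = 16).

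Other markers of regulatory or CD4 T cells split into dim and bright ones. Lrrc32, which displays latent TGF-beta on regulatory T cells, and Cd40lg, the helper T cell ligand of CD40, lay above the array median on 0 of 16 arrays, and Gpr83 on 1. Il2ra, Ctla4, Tnfrsf18, Izumo1r and Zbtb7b lay above it on 16 of 16. With these counted, 11 of the 16 genes of the regulatory T cell list and 4 of the 7 of the CD4 helper list did so. The 4 were Zbtb7b, Gata3, Rora and Cd5, and from which cells their transcripts came was not tested. Of the bright regulatory T cell genes, Ctla4, Tnfrsf18 and Izumo1r are also expressed by activated or exhausted CD8 T cells. Cd8a had means of 10.21, 9.98, 9.84 and 9.86 in effector WT, effector KO, memory WT and memory KO. The part of regulatory T cells in the Ikzf2 and Ikzf4 values was not tested beyond these levels.

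**Figure D5:**
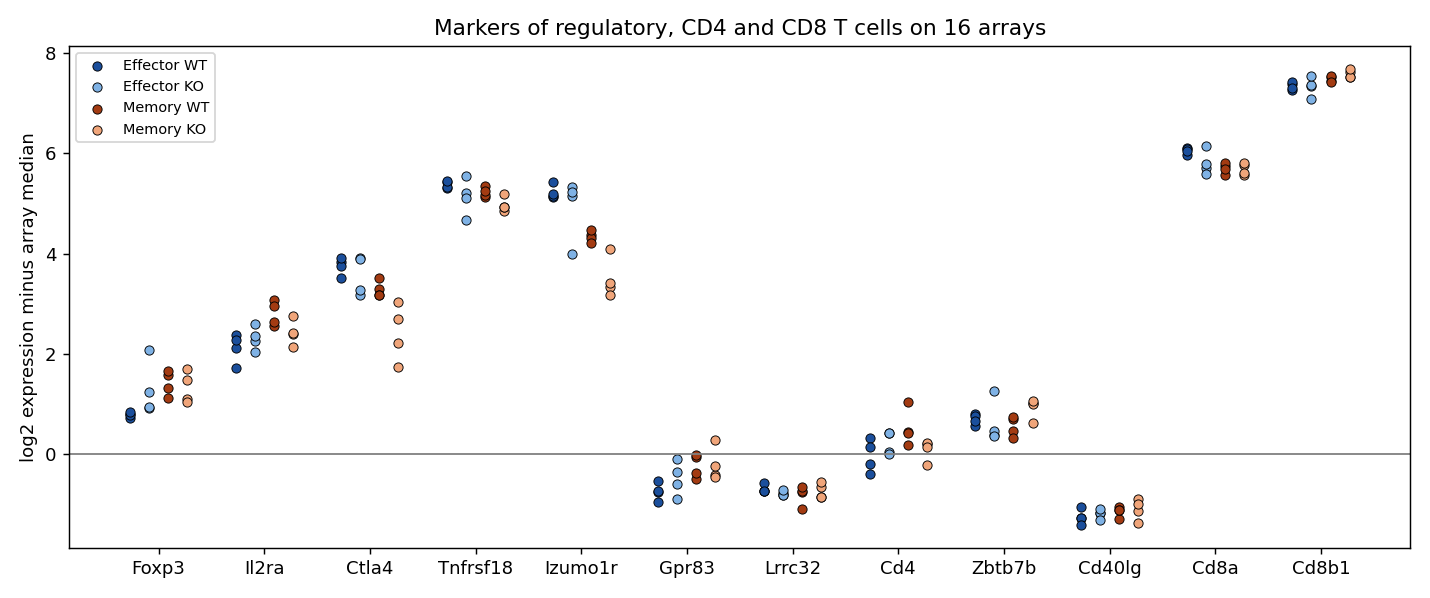
Log2 expression minus the median of the same array for markers of regulatory T cells (Foxp3 to Lrrc32), CD4 T cells (Cd4 to Cd40lg) and CD8 T cells (Cd8a, Cd8b1), with a point per array, coloured by group. The line at 0 is the array median. Lrrc32 and Cd40lg stay below it on every array, and Cd4 lies around it.

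Of the 16 genes of the wider regulatory T cell list, 0 were called in either direction between KO and WT in effector or in memory cells. The shares over all genes were 0.0541% and 0.113%. In memory cells 11 of the 16 lay below 0 and 5 above, and in effector cells 12 and 4. The median difference was -0.52 in memory cells, against 0.02 over all genes, and -0.20 in effector cells, against 0.01. The mean of the list was 5.89 to 6.53 on memory KO arrays and 6.58 to 6.77 on memory WT arrays. In memory cells KO minus WT was -1.12 ± 0.26 for Entpd1, the ectoenzyme CD39, -1.91 ± 0.50 for Tnfrsf9, the costimulatory receptor 4-1BB, -0.82 ± 0.23 for Ctla4 and -0.79 ± 0.24 for Izumo1r, the folate receptor FR4 (SE, n = 4 arrays a group, limma adjusted p = 0.115, 0.174, 0.2 and 0.218). These are the 4 with the smallest p, a choice that itself favours groups without overlap, and all 4 are without overlap. The KO group lay wholly below the WT group for 3.37% of all genes. On the other side of 0 lay, among others, Nt5e, the ectoenzyme CD73, with means of 8.42 in memory KO and 8.11 in memory WT, and Itgae, the integrin chain CD103, with 5.96 and 5.72. Between subsets 2 of 16 rose and 3 fell in effector WT, where 0.92% of all genes rose and 2.3% fell. In effector KO 4 rose and 2 fell, against 3.14% and 4.3% of all genes. Nt5e and Itgae had the smallest p in WT and fell, with means of 4.96 and 4.41 in effector WT. In KO the smallest p was that of Itgae, which fell as well, with a mean of 4.62 in effector KO. Il10 rose by 1.32 ± 0.32 in effector WT, and Entpd1 by 1.63 ± 0.26 in effector KO (SE, n = 4 arrays a group, limma adjusted p = 0.0312 and 0.00106).

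Of the 7 genes of the CD4 helper list, 0 were called between KO and WT, with a median of 0.23 in memory and 0.08 in effector cells. Its mean was 5.10 to 5.31 in effector WT, 5.26 to 5.57 in effector KO, 5.56 to 5.84 in memory WT and 5.76 to 6.07 in memory KO. Between subsets 2 of 7 fell in effector cells in each genotype, against 2.3% of all genes in WT and 4.3% in KO. Tnfsf8, the CD30 ligand, lay below the array median on 4 of 4 effector WT and 2 of 4 effector KO arrays. It fell by 2.67 ± 0.29 on the log2 scale in WT and by 2.64 ± 0.29 in KO (SE, n = 4 arrays a group, limma adjusted p = 7.07e-05 and 4.85e-05).

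Genes of the complexes that Ikaros proteins recruit were called only between subsets. Of 17 NuRD, Sin3 and CtBP genes, 0 were called between KO and WT in either subset. Of all genes, 0.0541% were called there in effector and 0.113% in memory cells. Of the 17, 1, Mta3, rose in effector cells in each genotype, against 0.92% of all genes in WT and 3.14% in KO. Hdac1, a histone deacetylase of NuRD and Sin3, gave -0.39 ± 0.15 in effector and -0.35 ± 0.15 in memory cells for KO minus WT (SE, n = 4 arrays a group, limma adjusted p = 0.488 and 0.406). Chd3, a chromatin remodeller of NuRD, gave 0.22 ± 0.17 in effector and 0.45 ± 0.17 in memory cells (SE, n = 4 arrays a group, limma adjusted p = 0.69 and 0.318). Of the 4 measured genes of the cereblon ligase, 0 were called in any comparison, which at such shares says little for so short a list. Crbn, cereblon itself, gave -0.28 ± 0.11 in effector and -0.31 ± 0.11 in memory cells for KO minus WT (SE, n = 4 arrays a group, limma adjusted p = 0.496 and 0.301). Its memory groups did not overlap, and 3.37% of all genes lay wholly lower in memory KO.

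Genes known as targets of Ikaros family proteins were called mostly between subsets, as were genes in general, with 3.22% of all genes called in WT and 7.43% in KO. Of 13 measured, 1 rose and 3 fell in effector WT against memory WT, and 2 rose and 3 fell in effector KO against memory KO. Bcl2, which protects from cell death, fell in effector cells by 1.28 ± 0.20 in WT and 1.49 ± 0.20 in KO (SE, n = 4 arrays a group, limma adjusted p = 0.00177 and 0.000338). Between genotypes Il7r rose in effector KO, as given above, and Ifng fell in memory KO by 1.34 ± 0.24 (SE, n = 4 arrays a group, limma adjusted p = 0.0404). Ifng encodes interferon gamma. Il7r is also the gene of the sort marker.

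Helios also marks a regulatory subset of CD8 T cells that bears Ly49 receptors. Of the 7 measured markers of that subset, 0 were called between genotypes, against 0.0541% of all genes in effector and 0.113% in memory cells. Of the 7, 1, Klra6, a Ly49 receptor, was called lower in effector cells in each genotype (limma adjusted p = 0.034 in WT and 0.0018 in KO). Of all genes, 2.3% were called lower in WT and 4.3% in KO. Klra6 lay below the array median on 8 of 8 effector arrays, at 2.48 to 3.30 in WT and 2.43 to 2.95 in KO, so the size of its difference is uncertain. On memory arrays it lay at 3.42 to 5.32 in WT and 4.25 to 6.37 in KO. Of the 7 markers, 3 were higher and 4 lower in effector WT than in memory WT. In KO cells 4 were higher and 3 lower. Klra1, Klra3 and Klra7 of the list were not measured. The part of such cells in the Ikzf2 values was not tested. Itgb8, an integrin chain that activates TGF-beta, gave -1.80 ± 0.64 in effector and -2.19 ± 0.64 in memory cells for KO minus WT (SE, n = 4 arrays a group, limma adjusted p = 0.462 and 0.215).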

How the data were processed

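RNA of 16 sorted samples was hybridised to 1-colour Affymetrix arrays after amplification with the WT Pico kit, per the labels' protocols. The authors deposited 1 normalized value per probe set, taken here as log2 expression from its range of 0.737 to 14.0. The sources used here do not give the log base, background correction or normalization, and no detection calls or scan dates were used. The number of arrays therefore limits the precision. Of 41345 probe sets, 23521 carried exactly 1 gene symbol. Genes with several such probe sets were represented by the brightest on average, giving 22180 genes. A further Foxp3 probe set shared with Ccdc22 and Ppp1r3f was not used.

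All 16 arrays entered 1 model of 4 group means in limma 3.58.1 under R 4.3.3 (lmFit, contrasts.fit, eBayes; 12 residual and 4.23 prior degrees of freedom). Two-sided p-values were adjusted by Benjamini-Hochberg per comparison across all genes, with a threshold of 0.05. Comparisons that share a group share its arrays. Correlations of deviations from group means used all 331776 pairings within groups. The procedure was tested on simulated data. Alternatives were quantile normalization, median centring, a filter on dim genes, the replicate number as a block, array weights, a trended prior, fewer arrays in the fit, the mean of a gene's probe sets, and leaving out each array.

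The genes and lists were chosen with earlier results of these data known. Named genes are the 7, up to 4 per list by smallest p, markers of cell types, and for each family member the 5 genes with the highest correlation of values and of deviations, predicted genes left out. No sequence is shown.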

Additional observations from a re-analysis of the deposited data

Results flagged for a closer look

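In 2 of the 28 combinations of gene and group, 1 array lay far from the other 3 by Dixon's test of the gap over the range, and chance gives about 1 in 20. Both concern Ikzf2. On effector KO 4 it measured 5.63, against 8.04 to 8.43 on the other effector KO arrays. That array also has the lowest correlations with the other arrays, 0.965 to 0.974, and the lowest estimated weight, 0.232. On memory WT 2 Ikzf2 measured 8.48, against 7.35 to 7.50 on the other memory WT arrays.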

How the results depend on the processing

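The 7 genes in 7 comparisons were recomputed under 24 alternatives, and 1102 of 1155 values kept their direction and their side of the threshold. Some alternatives could not move a difference. These were the mean of a gene's probe sets, as each of the 7 has 1, and leaving out an array of a group not compared. Counts of the 7 past the threshold changed as follows. With the replicate number as a block, 1 passed in memory KO against WT (0 without it; Ikzf4, adjusted p = 0.0417), 3 in effector against memory KO (1 without it; Ikzf2 0.0382, Ikzf4 0.0119), 2 in KO against WT over both subsets (0 without it; Ikzf2 0.0341, Ikzf4 0.00776) and 3 in effector against memory over both genotypes (1 without it; Ikzf2 0.0129, Ikzf4 0.00206). This block joins equal numbers across both genotypes, and some same-numbered pairs of KO and WT arrays deviated with r below 0. Same-numbered effector and memory arrays of 1 genotype deviated with r from 0.0178 to 0.239. A block within each genotype was not fitted. The labels do not say what a number shares, so the numbers were not taken to pair the samples. If they do mark 1 mouse within a genotype, the subset comparisons leave that pairing unused. All 4 effector WT arrays and 3 of 4 effector KO arrays correlated best with the memory array of their own number and genotype, a hint from the data and not the design.

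With array weights 2 passed in effector against memory WT (Foxp3 0.0474), 2 in effector against memory KO (Ikzf2 0.00548) and 3 over both genotypes. The filter on dim genes and the trended prior each gave 3 over both genotypes. With only the arrays compared, 2 passed in effector against memory WT and 0 in effector against memory KO. Leaving out 1 array gave 0 to 0 in effector KO against WT and in the interaction, 0 to 1 in memory KO against WT and in KO against WT over both subsets, 1 to 2 in effector against memory WT, 0 to 2 in effector against memory KO and 1 to 3 over both genotypes.

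Signs turned for small differences, where the cause was not tested. These were memory KO minus WT of Ikzf3 with centred arrays (-0.011) and of Foxp3 with array weights (0.0077), and KO minus WT over both subsets of Ikzf5 with array weights (0.015). With 1 array left out, the differences ran from -0.073 to 0.013 for Ikzf1 in effector KO against WT, and from -0.073 to 0.0097 for Ikzf1 and -0.30 to 0.080 for Foxp3 in effector against memory KO. They ran from -0.00099 to 0.067 for Ikzf3 and -0.16 to 0.064 for Foxp3 in memory KO against WT, and from -0.024 to 0.49 for Ikzf4 in the interaction. Over both subsets they ran from -0.085 to 0.081 for Ikzf5 and -0.13 to 0.019 for Cd4, and over both genotypes from -0.13 to 0.035 for Ikzf5.

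Counts over all genes moved by more than 1.5 times as follows. Effector KO against WT called 12, and 29 with the block, 4 with only the arrays compared and 4 to 42 with 1 array left out. Memory KO against WT called 25, and 104, 7 and 11 to 249 under these, and 42 with array weights. Effector against memory called 715 in WT, and 1644 with array weights, 1320 with only the arrays compared and 359 to 1037 with 1 left out, and 1649 in KO, and 600 and 961 to 2044. KO against WT over both subsets called 43, and 92 with the dim filter, 389 with the block, 72 with array weights, 78 with the trend and 23 to 329 with 1 left out. The interaction called 0 to 5 with 1 left out.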
